A study of Homo sapiens with 18 samples.

Results

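The genes described here are 10 feedback genes of the ERK pathway, chosen by name: *SPRY1*, *SPRY2*, *SPRY4*, *SPRED1*, *DUSP4*, *DUSP5*, *DUSP6*, *ETV4*, *ETV5* and *PHLDA1*. All 10 were found among the 21944 genes of the deposited table, and each was listed at 3, 6 and 24 h. Most genes were, since 18672 of the 21944 were listed at all 3 times. Polyadenylated RNA was sequenced from human pancreatic progenitors at day 19 of differentiation, reseeded on either of 2 matrices. One was LN411, a laminin isoform, and the other was fibronectin (FN). RNA was taken from each matrix at 3, 6 or 24 h, which gave 6 groups of 3 samples and 18 samples in total. The progenitors of every group came from human embryonic stem cells, had been detached with accutase and were plated again, so that reseeding was common to both matrices. The growth protocol names the SA121-derived NGN3-GFP reporter line, while the cell line field names HUES4. The paper gives NGN3-GFP as the source of the cells in this experiment. Which cultures or differentiations the replicates came from is not given in the labels.

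The value used here for each gene is the authors' mean normalized count, the average over the samples of the read counts after division by each sample's size factor. It is a single number for LN411 and FN and for all times together. It thus gives how abundant a transcript was on average over these cultures, and not how it differed between matrices or times. Levels and their order within any single group may be different. The mean carries no replicate error, and neighbouring genes in the order of levels cannot be tested against each other. Effects of LN411 at each time were therefore not analysed here. Levels of different genes are compared per kilobase of the longest annotated transcript, since longer transcripts give more fragments.

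ERK is the kinase at the end of a relay that runs from receptors of growth factors through RAS, RAF and MEK. Active ERK switches on genes whose products dampen the relay, which makes these transcripts widely used readouts of its activity. In the developing pancreas, signals from FGF receptors through this relay are known for sustaining progenitor growth. Sprouty and SPRED proteins act near the receptor and RAS, dual-specificity phosphatases remove phosphates from ERK itself, and the PEA3 factors *ETV4* and *ETV5* are transcription factors downstream of FGF signalling.

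The levels of the feedback genes were far apart. *DUSP5* was the highest and *SPRY4* the lowest, with 25233 and 44.7 normalized counts per kb of the longest transcript, a ratio of 565. *DUSP5* and *PHLDA1* together made up 86.4% of the summed mean normalized count of the group, and the other 8 genes made up 13.6%. The median level of the 10 genes was 620 normalized counts per kb, against 99.6 over the 21861 listed genes with an annotated length. Those 21861 genes include genes without a coding length, while each of the 10 has one. Of the 10 genes, 8 lay above the median of all listed genes, and *ETV5* and *SPRY4* lay below it. With the median transcript, *SPRY1* and *SPRY4* were the 2 genes below. With the coding length, ranked only among the 15359 genes that have one, *SPRY1*, *SPRY4* and *ETV5* were below.

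**Figure D1:**
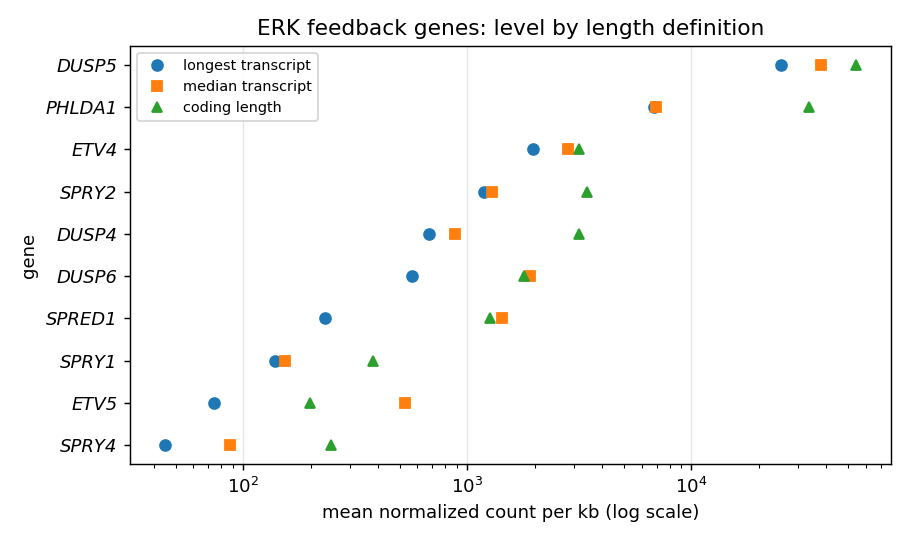
The authors' mean normalized count per kb of each feedback gene on a log axis, with 1 symbol for each definition of length (longest transcript, median transcript, coding length). There are no error bars, since values per sample were not available. *DUSP5* and *PHLDA1* are the highest and the second highest under each definition, while the order of the other genes changes, the lowest included.

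Among the inhibitors that act upstream, *SPRY2* was the most abundant Sprouty. *SPRY2* (ENSG00000136158, chromosome 13 of GRCh38, 80335976 to 80341126, as for the positions that follow) reached 1189 normalized counts per kb, from a mean normalized count of 3221. *SPRY1* (ENSG00000164056, chromosome 4, 123396795 to 123403760) had a mean normalized count of 363 and 139 normalized counts per kb. *SPRY4* (ENSG00000187678, chromosome 5, 142310427 to 142326455) had a mean normalized count of 239 and 44.7 normalized counts per kb. The level of *SPRY2* per kb was thus 8.55 times that of *SPRY1* and 26.6 times that of *SPRY4*. Its ratio to *SPRY4* was 14.8 with the median transcript and 13.8 with the coding length. *SPRY3*, the remaining Sprouty gene, was not listed in the table and so has no level here.

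*SPRED1* (ENSG00000166068, chromosome 15, 38252836 to 38357249) encodes a relative of the Sproutys that brings the RAS inhibitor neurofibromin to the membrane. Its mean normalized count was 1685 and its level 232 normalized counts per kb. Its place depends on the length used, because its longest transcript of 7270 bases is far longer than its median transcript of 1177 bases. With the median transcript, *SPRED1* reached 1431 normalized counts per kb and stood above *SPRY2* with 1290. That median length is shorter than the coding length of 1332 bases. With the coding length, *SPRED1* had 1265 normalized counts per kb and stood below *SPRY2* with 3408. Its relatives *SPRED2* and *SPRED3* had 193 and 27.9 normalized counts per kb of the longest transcript. *NF1*, which encodes neurofibromin, had 590.

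The 3 phosphatases differed in their level. *DUSP5* (ENSG00000138166, chromosome 10, 110497907 to 110511533) encodes a phosphatase of the nucleus that acts on ERK. Its mean normalized count of 62502 ranked 61st of the 21944 listed genes, and its level of 25233 normalized counts per kb was at percentile 99.7 of all genes. *DUSP6* (ENSG00000139318, chromosome 12, 89347235 to 89352501) encodes a cytoplasmic ERK phosphatase. It had a mean normalized count of 2056 and 567 normalized counts per kb. *DUSP4* (ENSG00000120875, chromosome 8, 29333064 to 29350684) encodes another nuclear phosphatase and had a mean normalized count of 3740 and 674 normalized counts per kb.

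Per kb, *DUSP5* was 44.5 times as abundant as *DUSP6* and 37.5 times as abundant as *DUSP4*. These ratios were 19.8 and 43.2 with the median transcript, and 30.2 and 17.1 with the coding length. The order of *DUSP4* and *DUSP6* was not fixed. Their ratio was 1.19 for the longest transcript, 1.76 for the coding length and 0.459 for the median transcript. The median transcript length of *DUSP6*, 1074 bases, is shorter than its coding length of 1143 bases. The level of *DUSP5* also lay above that of every other dual-specificity phosphatase of the list of relatives. The nearest was *DUSP1*, an immediate early phosphatase of the nucleus, with 1868 normalized counts per kb, followed by *DUSP9* with 1383 and *DUSP10* with 382. *DUSP2*, *DUSP7*, *DUSP8* and *DUSP16* had between 20.2 and 177 normalized counts per kb.

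The PEA3 factors were dominated by *ETV4*. *ETV4* (ENSG00000175832, chromosome 17, 43527844 to 43579620) had a mean normalized count of 4586 and 1964 normalized counts per kb, at percentile 93.2 of all genes. *ETV5* (ENSG00000244405, chromosome 3, 186046314 to 186110318) had a mean normalized count of 303 and 74.3 normalized counts per kb, at percentile 46.5. These percentiles depend on the length used. With the median transcript they were 83.5 for *ETV4* and 60.3 for *ETV5*, and with the coding length 81.8 and 30.7. The ratio of *ETV4* to *ETV5* was 26.4 for the longest transcript, 5.32 for the median transcript and 15.9 for the coding length, so that *ETV4* was the higher under each definition. The third PEA3 factor, *ETV1*, was lower than both, with 7.78 normalized counts per kb.

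*PHLDA1* (ENSG00000139289, chromosome 12, 76025447 to 76031776) encodes a protein with a pleckstrin homology-like domain whose transcript is induced by ERK signalling. Its mean normalized count of 40386 ranked 136th of the listed genes. Its 6830 normalized counts per kb lay at percentile 98.5, against 93.2 with the median transcript and 98.7 with the coding length. *DUSP5* exceeded it by a ratio of 3.69 per kb of the longest transcript, 5.47 of the median transcript and 1.62 of coding sequence. Of its relatives, *PHLDA3* had 1042 normalized counts per kb and *PHLDA2* had 83.4.

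**Figure D2:**
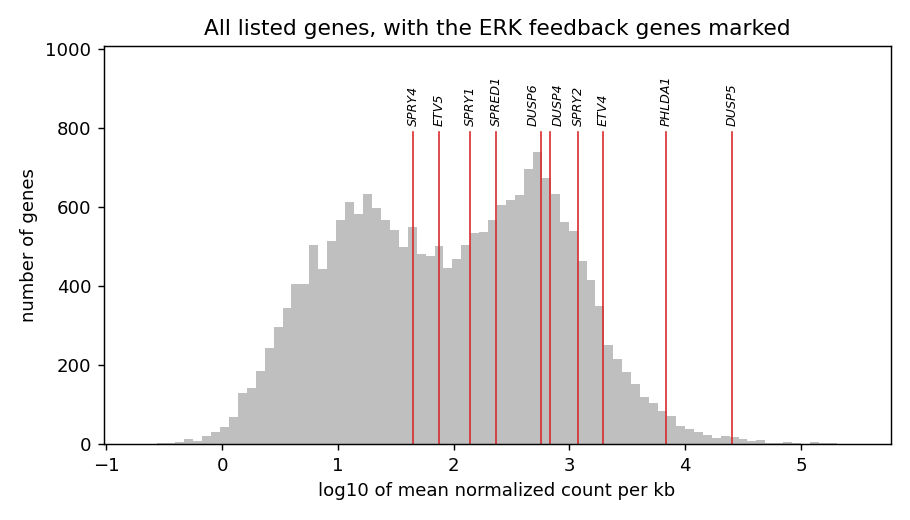
Histogram of the log10 mean normalized count per kb over the 21861 listed genes with an annotated length, with a red line at each feedback gene. The feedback genes run from *SPRY4*, between the 2 humps of the histogram, to *DUSP5* in its upper tail.

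The rest of the relay was described with 34 genes for receptors, adaptors, kinases and output genes, all of which were listed. Their median level was 834 normalized counts per kb, and 32 of the 34 lay above the median of all genes. Among the receptors, *FGFR4* was the highest with 3248 normalized counts per kb, followed by *FGFR3* with 2136 and the EGF receptor gene *EGFR* with 2004. *MET*, the receptor of hepatocyte growth factor, was the lowest of the 8 receptors with 399. The 7 kinase genes described here ran from 138 for the scaffold *KSR1* to 1313 normalized counts per kb for *MAP2K2*, which encodes a MEK kinase. *MAPK3*, which encodes an ERK kinase, had 446.

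Set among these 34 genes, *DUSP5* was above all of them and *PHLDA1* above 33, the exception being *CCND1*, the cyclin D1 gene, with 10129 normalized counts per kb. With the median transcript, *CCND1* was above *DUSP5* too, as 1 of the 34 genes, and 4 were above *PHLDA1*. *ETV4* was above 27 of the 34 and *SPRY2* above 21, and with the median transcript these counts were 19 and 10. At the other end, *SPRY1* was above 3 of the 34 genes, *ETV5* above 2 and *SPRY4* above 1. The 7 output genes were also spread widely, from *IER3* with 38.1 and *FOSL1* with 45.4 normalized counts per kb to *FOS* with 1506 and *CCND1*. The 12 listed relatives of the feedback genes had a median of 130 normalized counts per kb, and 6 of them lay above the median of all genes.

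**Figure D3:**
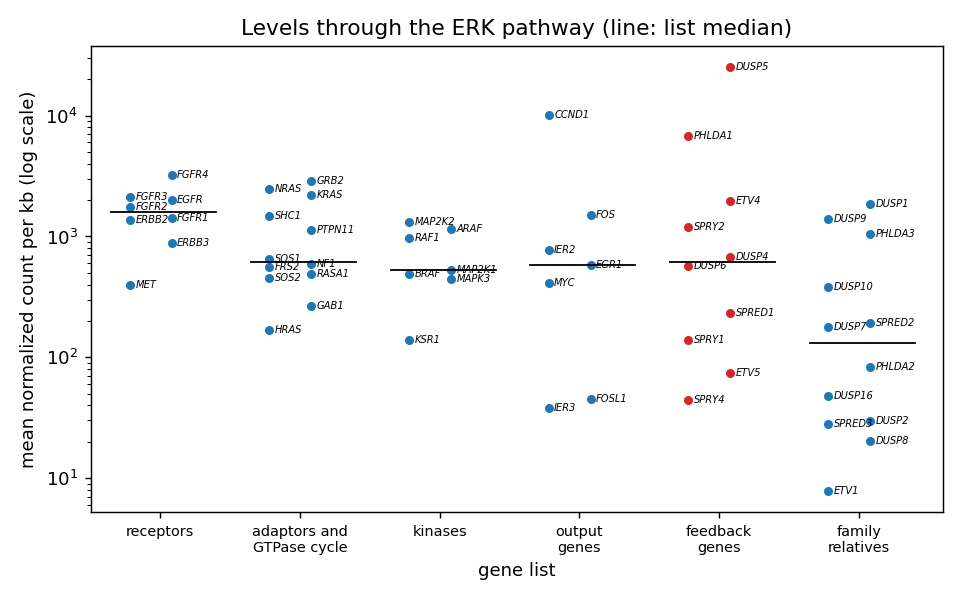
Mean normalized count per kb of the longest transcript on a log axis for 34 genes of the ERK relay in 4 lists, the 10 feedback genes (red) and 12 listed relatives, with 1 point for each gene and a line at each list's median. The feedback genes span a wider range than the receptors or kinases, with *DUSP5* at 25233 and *SPRY4* at 44.7.

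Other annotated genes share exon bases with 4 of the feedback genes, which matters where reads over 2 genes are left uncounted. The overlaps are those of GENCODE v44, while the authors counted reads with an earlier release. Whether each overlapping gene was in that release was not checked. An antisense non-coding gene, ENSG00000274021, covers 24.1% of the exon bases of the canonical *DUSP6* transcript and had a mean normalized count of 40.7. *PHLDA1-AS1*, which was not among the listed genes, covers 9.35% of those of *PHLDA1*. *DGKG* covers 4.02% of those of *ETV5* and the helicase gene *DHX8* 2.31% of those of *ETV4*. *DHX8* itself had a mean normalized count of 4271, close to the 4586 of *ETV4*. The library kit named in the labels, NEBNext Ultra II RNA, does not mark strand in its standard form, and reads were counted with the gene count option of STAR. Reads of a gene and of its antisense partner can then not be told apart where their exons overlap. Which of STAR's strand settings was taken is not given in the sources used here, and the part of these overlaps in the levels was not tested. No gene shares exon bases with *SPRY1*, *SPRY2*, *SPRY4*, *SPRED1*, *DUSP4* or *DUSP5* in the annotation.

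The identity of the cells was checked on marker genes. Of the progenitor markers, *GP2* had 40743 normalized counts per kb, *SOX9* 5259, *PDX1* 4969, *FOXA2* 2146, *NKX6-1* 875 and *PTF1A* 8.10. The pluripotency genes *NANOG* and *POU5F1* were not listed, and the 3 endothelial markers had between 1.24 and 11.0. Genes of other lineages were present, with 10996 normalized counts per kb for *AFP*, 2454 for *VIM* and 1031 for *CDX2*. *COL1A1* had 692, *ALB* 280, *COL3A1* 58.3 and *PDGFRB* 20.0. *AFP* was thus above every progenitor marker except *GP2*. *VIM* was also above *FOXA2* and *NKX6-1*, and *CDX2* above *NKX6-1*. Which cells carried the feedback transcripts cannot be told in bulk RNA, where the number of cells of a type and the RNA per cell are not separated, and the part of other cell types in the levels was not tested.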

How the data were processed

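Poly(A)-selected RNA of 18 samples was sequenced. Per the paper's methods, the authors aligned reads with STAR 2.7.2d to GRCh38, counted reads per gene and fitted DESeq2 1.34.0. Their GENCODE release was earlier than the v44 used here for lengths and overlaps. The signal used here is the mean normalized count that the authors deposited, averaged over the samples after size-factor scaling. It was the same at all 3 times (largest relative gap 4.89e-07) and sums to 53217583 over 21944 genes. The depth of single libraries is unknown. The other columns of the deposited table hold the authors' own comparisons of LN411 with FN (fold change, standard error, statistic and p-values) and were not used. No values per sample were available, so the edgeR test chosen for them, with its alternatives, was not run.

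Positions and lengths were those of GENCODE v44 on GRCh38, matched by Ensembl identifier for 99.6% of genes and all 10 feedback genes. Percentiles are mid-ranks over all genes with a length, and were tested on simulated data. Those by coding length are over the 15359 genes with a coding length. Alternatives were the median transcript length, the coding length and ranking of the 19329 genes with a mean of at least 10. The median transcript length was shorter than the coding length for *SPRED1*, *DUSP6* and *ETV5*. All 10 feedback genes were named, and others only from fixed lists of pathway genes, relatives and markers, of which some genes are not reported here. The members and lists were chosen with earlier results of these data known. Python 3.11.15, pandas 2.3.3, numpy 2.4.6 and matplotlib 3.10.9 were used.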

Additional observations from a re-analysis of the deposited data

How the results depend on the processing

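The ratio of the highest to the lowest feedback gene was 565 per kb of the longest transcript, 435 with the median transcript and 274 with the coding length. *DUSP5* was the highest under each definition, and the lowest was *SPRY4* except with the coding length, where it was *ETV5*. The median percentile of the 10 genes was 78.0. It became 73.3 with the median transcript, 76.6 with the coding length and 75.0 among genes with a mean of at least 10. The percentile by coding length was taken among the 15359 genes with a coding length, a smaller set than for the other lengths. Of 12 ratios between feedback genes, 10 kept their direction under both other lengths. These 12 were picked from all possible pairs, and many hold *DUSP5* or *SPRY4*, which lie at or near the ends of the order. Pairs that were not picked also changed order, such as *ETV4* with *SPRY2* and *ETV5* with *SPRY4* by the coding length. With the median transcript, the ratio of *DUSP4* to *DUSP6* turned to 0.459 and that of *SPRY2* to *SPRED1* to 0.901, both through the length alone, since the counts are the same. No paired analysis was possible because no values per sample were available, only a mean over all samples. Leaving out replicates, DESeq2 and a fit without a filter on low counts were not run for the same reason. The depth of single samples and the spread between them are unknown, so that no interval was given for any level.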
